A study of Mus musculus with 24 samples.

Results

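The genes described here are 10 markers of dendritic cells (DCs) and Langerhans cells, Cd207, Epcam, Cdh1, Flt3, Zbtb46, Batf3, Ccr7, Fscn1, Cd83 and Dpp4, followed in bone marrow-derived macrophage (BMDM) cultures with and without the aryl hydrocarbon receptor (AhR). They were chosen by gene symbol, with earlier results of these data known, and make up 10 of the 55421 genes counted. As lineage markers they would move with a change of cell identity or of cell mixture in the culture. Polyadenylated RNA was sequenced from 24 BMDM cultures in 4 groups of 6, each given as 6 animals in 1 experiment. The groups were WT (C57/B6/J) unstimulated, AhR-KO (B6.129-Ahr tm1Bra/J, homozygous) unstimulated, WT after lipopolysaccharide (LPS) and AhR-KO after LPS. All cultures were grown from marrow with 10 ng/ml GM-CSF and 2 ng/ml TGF-β, which gives macrophages resembling those of the lung alveoli. LPS, a bacterial cell wall component, was added on day 6 at 97 EU/ml for 24 h, and the calcium ionophore A23187 was then given at 5 µM for 10 min. The knockout is germline and whole-body, so the donor mice had developed without AhR. By the study's methods the mice were young adults of both sexes, and no label gives the age or sex behind a library, or whether an unstimulated and an LPS culture came from the same animal.

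DCs are antigen-presenting cells that arise from marrow progenitors under the cytokine FLT3 ligand, or under GM-CSF in culture, and on maturation they raise the chemokine receptor CCR7 and travel to lymph nodes. Langerhans cells are the macrophage-like antigen-presenting cells of the epidermis. They depend on TGF-β, carry the lectin langerin (CD207) in Birbeck granules and hold to keratinocytes through E-cadherin (CDH1), and they also carry the surface protein EpCAM. AhR senses small molecules in the cytoplasm, and once bound to one it pairs with ARNT in the nucleus at DNA sites with the core GCGTG.

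Libraries held 45106052 to 76992663 counted fragments. Levels are given as CPM, the count of a gene per 1000000 counts of the library, scaled between libraries by the trimmed mean of M-values (TMM), and a gene was called when edgeR's quasi-likelihood test over all 16593 genes tested put its adjusted p at 0.05 or under and its change at 2-fold or more. Library numbers formed 3 runs of 8 with 2 libraries of each group in each run, and no label calls these runs batches. The slope of expression on gene length ran from 0.208 to 0.312 in the second run and from -0.296 to 0.135 in the others. WT unstimulated library 33 and AhR-KO unstimulated library 19 had the lowest slopes. Macrophage markers were present in all groups, with group means of 433 to 3042 CPM for Adgre1, 306 to 342 CPM for Csf1r and 13690 to 26480 CPM for Lyz2, while Cd163 had no count after LPS. Ahr itself averaged 28.3 ± 12.2 CPM (SD, n = 6) in WT and 7.42 ± 2.39 CPM in AhR-KO unstimulated cultures, but 16.8 ± 7.64 and 43.1 ± 16.2 CPM after LPS. Counts per gene include reads outside the deleted part and do not check the knockout. In bulk RNA, fewer cells of a type and less RNA per cell cannot be told apart, which holds for every result here.

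AhR acts at GCGTG, and the sequences upstream of 5 of these genes are printed, those with a listed promoter whose transcripts were called lower in unstimulated AhR-KO cultures. A RefSeq promoter (GRCm38.p6, the 250 bases before the annotated start, on the gene's strand) was listed for 7 of the 10 markers, and none was listed for Cdh1, Ccr7 and Cd83. Capitals mark GCGTG, searched on both strands, and the AP-1 motif TGANTCA, which Batf3 can bind with Jun proteins. The windows lie at chr6:83677858-83678107 on the minus strand for Cd207, chr17:87635729-87635978 on the plus strand for Epcam, chr5:147400490-147400739 on the minus strand for Flt3, chr5:142960105-142960354 on the plus strand for Fscn1 and chr2:62412232-62412481 on the minus strand for Dpp4.
Cd207 promoter: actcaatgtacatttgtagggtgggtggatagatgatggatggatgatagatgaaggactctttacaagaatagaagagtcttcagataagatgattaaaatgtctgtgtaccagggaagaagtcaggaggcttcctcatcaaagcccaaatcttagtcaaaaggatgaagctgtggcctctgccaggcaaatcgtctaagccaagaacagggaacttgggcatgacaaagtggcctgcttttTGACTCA
Epcam promoter: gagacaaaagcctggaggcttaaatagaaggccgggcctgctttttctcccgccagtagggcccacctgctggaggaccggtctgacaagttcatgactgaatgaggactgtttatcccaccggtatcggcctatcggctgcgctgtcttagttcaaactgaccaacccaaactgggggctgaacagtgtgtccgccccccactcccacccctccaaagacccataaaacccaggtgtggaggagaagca
Flt3 promoter: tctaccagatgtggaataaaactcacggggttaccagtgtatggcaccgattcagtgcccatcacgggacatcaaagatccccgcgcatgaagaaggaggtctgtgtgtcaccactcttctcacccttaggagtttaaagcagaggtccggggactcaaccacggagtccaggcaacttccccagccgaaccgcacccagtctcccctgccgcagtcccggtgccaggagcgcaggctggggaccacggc
Fscn1 promoter: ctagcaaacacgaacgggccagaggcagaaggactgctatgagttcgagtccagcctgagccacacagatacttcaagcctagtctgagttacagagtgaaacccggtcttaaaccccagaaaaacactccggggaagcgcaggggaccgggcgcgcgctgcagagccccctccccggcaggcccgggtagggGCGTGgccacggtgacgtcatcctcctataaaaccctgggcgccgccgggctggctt
Dpp4 promoter: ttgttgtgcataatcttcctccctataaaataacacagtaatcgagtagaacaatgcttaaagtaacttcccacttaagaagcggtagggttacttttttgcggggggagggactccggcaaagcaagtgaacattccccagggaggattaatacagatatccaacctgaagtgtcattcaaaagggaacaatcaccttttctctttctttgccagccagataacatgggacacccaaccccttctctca
GCGTG was found in 1 of the 7 windows, that of Fscn1, beginning 57 bases before the start, against 28.35% of 32536 promoter windows of this length. TGANTCA was found in 2 of the 7, beginning 7 bases before the start in Cd207 and 61 bases before it in Zbtb46, against 6.73% of all. The Zbtb46 window lies inside the gene, at chr2:181424389-181424638 on the minus strand, where the gene model itself begins at 181459426, so it covers an internal start, and the window of Batf3 also lies inside its gene. A match is only a string of letters, and its absence holds for these 250 bases alone.

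In unstimulated cultures 7 of the 10 markers fell in AhR-KO relative to WT (Cd207, Epcam, Flt3, Ccr7, Fscn1, Cd83 and Dpp4), Batf3 rose, and Cdh1 and Zbtb46 were not called. The 8 called genes stand beside 4.48% of all genes tested, with 3.57% called lower and 0.916% called higher. As the markers were chosen with earlier results of these data known, the shares given here are no test of the set. In these 8 genes the 6 AhR-KO libraries also did not overlap the 6 WT libraries, which held for 5.15% of all genes, 3.44% lower and 1.71% higher. After LPS 8 markers fell in AhR-KO, with Cdh1 and Batf3 not called, beside 8.36% of all genes called, 6.19% lower and 2.17% higher. Of these, Cd207, Epcam, Flt3 and Dpp4 had groups that did not overlap, beside 7.11% of all genes, 4.53% lower and 2.59% higher. The median log2 fold change of the 10 was -4.61 without stimulation and -3.36 after LPS, and over all genes tested it was -0.006 and -0.046. All 10 passed the filter on low counts, Cd207 and Flt3 only through their WT libraries, since none of their 12 AhR-KO libraries reached the filter's level of 0.174 CPM. A gene so low in AhR-KO could enter the test only by being high in WT. The genotype calls and the lack of overlap of Cd207 and Flt3 are therefore no separate support. The genotype comparisons share no library, but they come from 1 fit with a shared estimate of the spread. Whether their cultures came from the same animals is not stated.

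LPS moved the markers in opposite directions. In WT it raised 6 (Flt3, Zbtb46, Batf3, Ccr7, Fscn1 and Cd83) and lowered 3 (Cd207, Epcam and Cdh1), leaving Dpp4 uncalled, beside 24.9% of all genes called, 13.2% higher and 11.8% lower. In 7 of the 10 the LPS and unstimulated WT libraries did not overlap, as they did not in 22.4% of all genes. In AhR-KO it raised 4 (Batf3, Ccr7, Fscn1 and Cd83) and lowered 2 (Epcam and Cdh1), beside 30.8% of all genes called, 15.1% higher and 15.7% lower, and in 4 of the 10 the groups did not overlap, beside 28.5% of all genes. The median log2 fold change of the 10 was 2.04 in WT and 0.72 in AhR-KO, and 0.031 and -0.032 over all genes. The LPS comparisons share libraries with the genotype comparisons.

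**Figure D1:**
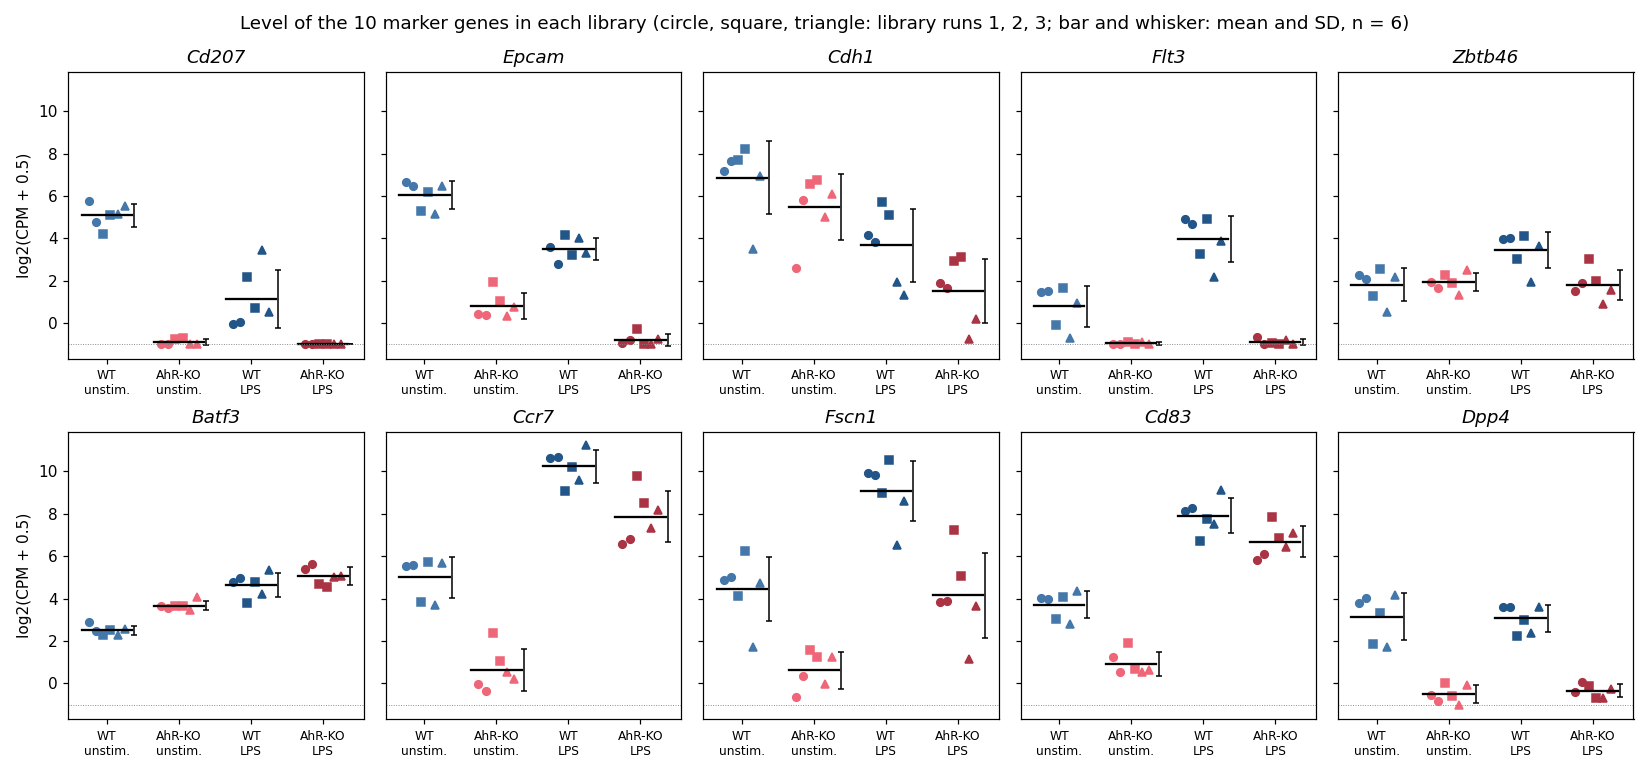
Level of each marker in the 24 libraries, as log2(CPM + 0.5), with 1 panel a gene and 1 point a library. The line is the mean, the whisker the SD of 6 libraries, the marker shape gives the run of library numbers and the dotted line the value of a library with no count. AhR-KO libraries lay on or near the dotted line for Cd207 and Flt3, while Ccr7, Fscn1 and Cd83 rose with LPS in both genotypes.

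**Figure D2:**
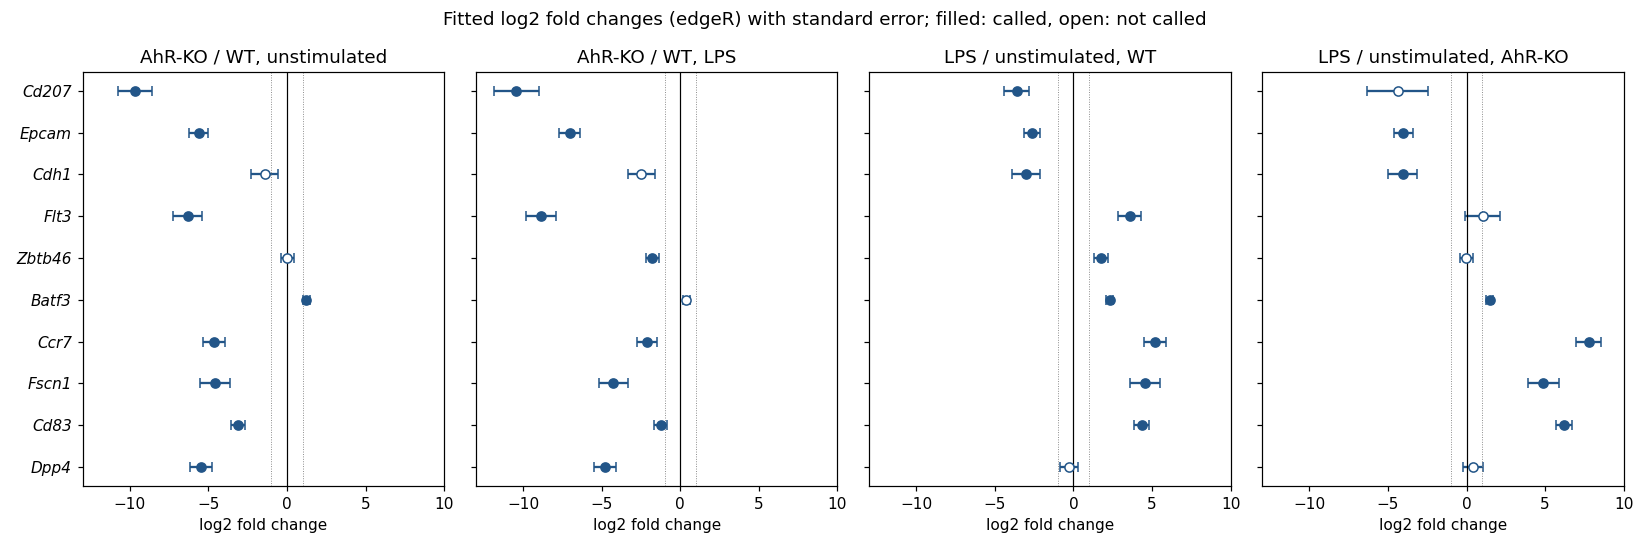
Fitted log2 fold changes of the 10 markers with their standard errors in the 4 comparisons, filled where called and open where not. In unstimulated cultures 7 points are filled left of zero and Batf3 is filled right of it, and after LPS 8 are filled left of zero. Dotted lines mark a 2-fold change.

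Cd207, which encodes langerin, was nearly without counts in AhR-KO cultures. Its level in WT unstimulated libraries ran from 17.75 to 53.2 CPM with a median of 34.1 CPM. The 6 AhR-KO unstimulated libraries had 17 counts among them, 3 had none, and the highest reached 0.116 CPM, so that the groups were far apart. The mean was 35.4 ± 12.8 CPM in WT and 0.0384 ± 0.0543 CPM in AhR-KO, a 921-fold difference in means (log2 fold change -9.67, SE 1.08, edgeR adjusted p = 1.07e-05), and -10.27 without AhR-KO library 27. LPS lowered Cd207 in WT to a median of 1.04 CPM, from 0.471 to 10.5 CPM, and the fall was called (log2 fold change -3.60, SE 0.79, edgeR adjusted p = 0.00131). The highest of these, WT LPS library 37, stood well above the next at 3.97 CPM, and without it the fitted change was -4.62. No AhR-KO library held a Cd207 count after LPS. Against a floor of 3 counts over the group, the level was at least 258-fold lower than in WT after LPS (edgeR adjusted p = 5.72e-05), or at least 145-fold without WT library 37, which held 438 of the 857 WT counts. The LPS change within AhR-KO was not called (adjusted p = 0.0772).

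Epcam, a homophilic adhesion molecule of epithelia and Langerhans cells, was measured in every unstimulated library. WT unstimulated libraries ran from 35.5 to 100.9 CPM (median 80.7) and AhR-KO libraries from 0.781 to 3.38 CPM (median 1.03), with no overlap. The difference was 49.6-fold in means (log2 fold change -5.62, SE 0.59, edgeR adjusted p = 8.32e-07). After LPS the WT libraries ran from 6.42 to 17.4 CPM (median 10.5) and the AhR-KO libraries from 0 to 0.315 CPM, with 26 counts in all and 2 libraries without any. That difference was 135-fold in means (log2 fold change -7.02, SE 0.67, edgeR adjusted p = 1.32e-07), and AhR-KO LPS library 31 carried 16 of the 26 counts. Without that library the fitted value was -8.09. Epcam fell with LPS in both genotypes, with log2 fold changes of -2.62 (SE 0.51) in WT and -4.02 (SE 0.62) in AhR-KO, with edgeR adjusted p = 2.35e-04 and 9.62e-06, the second being -5.08 without library 31.

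Cdh1, which encodes E-cadherin, behaved otherwise, with its genotype groups overlapping. In unstimulated cultures the WT libraries ran from 10.7 to 299 CPM (median 174) and the AhR-KO libraries from 5.48 to 108 CPM (median 62.4). The lowest library of each group, WT 33 and AhR-KO 19, also had the lowest length slope of its group. The means of 164 ± 97.1 and 60.6 ± 38.4 CPM gave a log2 fold change of -1.44 (SE 0.83, edgeR adjusted p = 0.537), and within the runs of library numbers it was -3.22, -1.29 and 0.34. When the length slope was fitted as a covariate, the difference was called at -1.67 (adjusted p = 1.44e-04). After LPS the WT libraries ran from 2.01 to 51.3 CPM and the AhR-KO libraries from 0.103 to 8.10 CPM, again overlapping (log2 fold change -2.47, SE 0.87, edgeR adjusted p = 0.0659). This difference was lower in AhR-KO in all 3 runs, from -2.38 to -1.91, and was called under 5 other settings, with adjusted p from 8.91e-06 to 0.0428. Cdh1 fell with LPS in both genotypes, with log2 fold changes of -3.01 (SE 0.88) in WT and -4.05 (SE 0.93) in AhR-KO, with edgeR adjusted p = 0.00877 and 9.33e-04. The first was -3.70 with the length slope fitted and the second -4.71 with a term for the run.

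Flt3, the receptor of the cytokine that drives DC development, was low before stimulation and rose with LPS in WT cultures. WT unstimulated libraries ran from 0.114 to 2.65 CPM (median 1.84) and WT LPS libraries from 3.98 to 29.6 CPM (median 19.8), with no overlap (log2 fold change 3.58, SE 0.72, edgeR adjusted p = 3.28e-04). The 12 AhR-KO libraries held 7 counts in all without stimulation and 11 after LPS, with 3 libraries at 0 in each group. Of those 11 counts, 7 came from AhR-KO LPS library 23. Flt3 was 97.5-fold lower in AhR-KO without stimulation (log2 fold change -6.32, SE 0.94, edgeR adjusted p = 7.15e-05) and 469-fold lower after LPS (log2 fold change -8.86, SE 0.98, edgeR adjusted p = 1.00e-06), by the ratio of means. Without library 23 the second value was -9.95. Both ratios rest on these few AhR-KO counts, and Flt3 passed the filter only through WT. A non-coding gene, Gm26597, overlaps Flt3 on the opposite strand, and fragments were counted by strand.

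Zbtb46, a zinc finger factor expressed in classical DCs and their precursors, was level between genotypes before LPS and apart after it. Means in unstimulated cultures were 3.42 ± 1.66 CPM in WT and 3.44 ± 1.14 CPM in AhR-KO (log2 fold change 0.01, SE 0.42). In WT LPS libraries it ran from 3.29 to 16.9 CPM (median 13.4), and in AhR-KO LPS libraries from 1.37 to 7.65 CPM (median 2.86). The ranges overlapped through WT library 37 and AhR-KO library 31, and 4 of the 6 AhR-KO libraries lay under all WT libraries. The difference after LPS was called (log2 fold change -1.77, SE 0.44, edgeR adjusted p = 0.0071), as was the rise with LPS in WT (1.77, SE 0.44, adjusted p = 0.00222). In AhR-KO the LPS change was -0.01 (SE 0.42). A gene on the same strand, Gm22708, overlaps Zbtb46, and fragments falling on both were not counted.

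Batf3, a partner of Jun and IRF proteins needed for cDC1, the cross-presenting class of classical DCs, was the only 1 of the 10 that rose in AhR-KO, and did so without stimulation. Its 6 WT unstimulated libraries lay between 4.38 and 6.85 CPM (median 5.24) and its 6 AhR-KO libraries between 10.5 and 16.3 CPM (median 12.04). The groups did not overlap and the means differed 2.35-fold (log2 fold change 1.23, SE 0.23, edgeR adjusted p = 7.77e-04), with every run between 0.908 and 1.33. After LPS the ranges of 13.4 to 40.4 CPM in WT and 22.7 to 49.8 CPM in AhR-KO overlapped, and the difference of 0.38 (SE 0.22, adjusted p = 0.336) was not called. LPS raised Batf3 in WT by a log2 fold change of 2.31 (SE 0.23, edgeR adjusted p = 2.91e-08) and in AhR-KO by 1.46 (SE 0.23, adjusted p = 1.02e-05). Its spread was the smallest of the 10 without stimulation, with a coefficient of variation of 17.3% in WT and 16.3% in AhR-KO.

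Ccr7, the receptor that guides mature DCs to lymph nodes, was the most LPS-responsive marker in both genotypes. WT unstimulated libraries ran from 12.4 to 51.7 CPM (median 46.7) and AhR-KO libraries from 0.272 to 4.71 CPM (median 0.802), with no overlap (log2 fold change -4.65, SE 0.71, edgeR adjusted p = 1.00e-04). Without AhR-KO library 27, the highest of its group, the value was -5.53. LPS took the WT libraries to between 541 and 2414 CPM (median 1375) and the AhR-KO libraries to between 96.5 and 884 CPM (median 224). The rise was 36.8-fold in WT and 220-fold in AhR-KO by the ratio of means, with edgeR adjusted p = 3.38e-06 and 3.46e-08. The fitted log2 rise in AhR-KO was 7.76, and it was 8.64 without library 27 and 7.13 without library 31. Ccr7 was still lower in AhR-KO after LPS (log2 fold change -2.09, SE 0.63, edgeR adjusted p = 0.0287), though library 31 of the AhR-KO group lay inside the WT range, and the value was -2.73 without it. The difference was -3.94, -0.486 and -2.68 in the 3 runs, and it was no longer called when any 1 of libraries 21, 23, 24, 38, 39 and 40 was left out (adjusted p from 0.0504 to 0.0667).

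Fscn1 encodes fascin, the actin-bundling protein of DC dendrites. Unstimulated WT libraries ran from 2.79 to 76.0 CPM (median 27.5) and AhR-KO libraries from 0.136 to 2.46 CPM (median 1.31). The groups stood narrowly apart, with WT library 33 at 2.79 CPM and the next WT library at 17.2 CPM (log2 fold change -4.57, SE 0.95, edgeR adjusted p = 0.00273). After LPS the WT libraries ran from 92.75 to 1494 CPM (median 707) and the AhR-KO libraries from 1.73 to 153 CPM (median 14.2), and only AhR-KO library 31, at 153 CPM, reached the WT range. The difference was 19.1-fold in means (log2 fold change -4.25, SE 0.93, edgeR adjusted p = 0.00251), and -5.60 on the log2 scale without library 31. LPS raised Fscn1 in WT by 4.57 (SE 0.94) and in AhR-KO by 4.89 (SE 0.96) on the log2 scale, with edgeR adjusted p = 4.06e-04 and 1.99e-04, the second being 3.56 without library 31.

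Cd83, a surface glycoprotein of mature DCs that stabilises MHC class II and CD86, fell in unstimulated AhR-KO cultures from a WT range of 6.51 to 19.8 CPM to a range of 0.938 to 3.29 CPM (log2 fold change -3.13, SE 0.44, edgeR adjusted p = 4.30e-05). After LPS the ranges of 105.9 to 562 CPM in WT and 56.3 to 233 CPM in AhR-KO overlapped. The log2 fold change was -1.25 (SE 0.41) with an edgeR adjusted p of 0.0479. That call was lost under 4 other settings and on leaving out any 1 of 17 of the 24 libraries, with the value at -0.91 without WT library 38, and within the second run the difference was 0.118. LPS raised Cd83 20.3-fold in WT and 75.0-fold in AhR-KO by the ratio of means, with edgeR adjusted p = 7.76e-08 and 6.09e-10.

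Dpp4 encodes CD26, a membrane dipeptidase that trims chemokines and that is carried by migratory cDC1. Its LPS change was not called in either genotype, with log2 fold changes of -0.28 (SE 0.58, adjusted p = 0.756) in WT and 0.40 (SE 0.64, adjusted p = 0.66) in AhR-KO. WT libraries ran from 2.81 to 17.5 CPM without stimulation (median 11.5) and from 4.26 to 11.9 CPM after LPS (median 9.47). AhR-KO libraries reached 0.532 CPM at most without stimulation and 0.566 CPM after LPS, well under every WT library. The differences were 45.1-fold (log2 fold change -5.46, SE 0.72, edgeR adjusted p = 1.61e-05) and 27.9-fold (log2 fold change -4.79, SE 0.70, edgeR adjusted p = 3.39e-05). A gene on the opposite strand, Gm13561, overlaps Dpp4.

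The LPS response was not called different between genotypes for any of the 10 by edgeR at an adjusted p of at most 0.05, beside 4.3% of all genes (1.95% higher and 2.34% lower), while 4 had an unadjusted p of at most 0.05 and DESeq2 called 3. The shares of all genes by unadjusted p and by DESeq2 are not given, so those counts say nothing of the markers as a set. The difference between the responses, on the log2 scale and positive where AhR-KO responded more, was 2.56 (SE 0.87, adjusted p = 0.117) for Ccr7, 1.88 (SE 0.58, adjusted p = 0.0722) for Cd83, -1.78 (SE 0.60, adjusted p = 0.114) for Zbtb46 and -0.85 (SE 0.31, adjusted p = 0.166) for Batf3. DESeq2 called Ccr7, Cd83 and Zbtb46, with adjusted p = 0.035, 0.0245 and 0.0418. In edgeR, Zbtb46 was called with a term for the run (-1.88, adjusted p = 0.0471), and all 4 were called with the length slope fitted (adjusted p from 0.0153 to 0.0477). Leaving out 1 library brought a call for Zbtb46 (31 or 37), Ccr7 (27) and Cd83 (27, 33 or 38), with adjusted p from 0.0133 to 0.0481. The Ccr7 difference was 3.44 without library 27 and 1.92 without library 31 (adjusted p = 0.26). For Fscn1 it was 0.32 (SE 1.15) and for Dpp4 0.67 (SE 0.86).

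**Figure D3:**
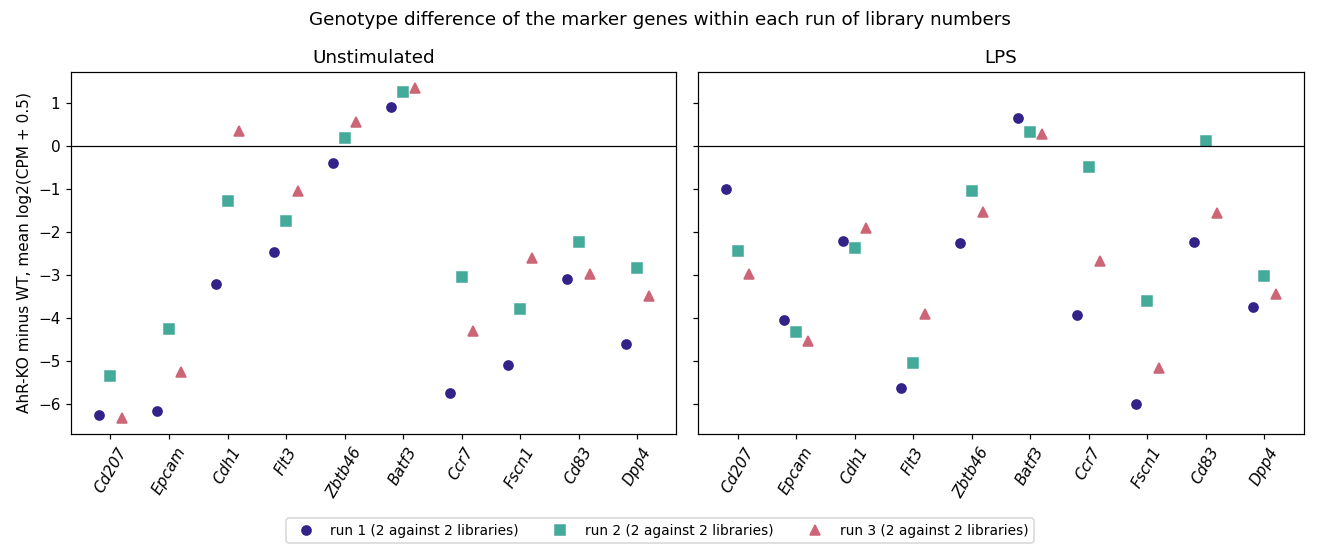
Genotype difference (AhR-KO minus WT, mean log2(CPM + 0.5)) of each marker within each of the 3 runs of library numbers, 2 libraries against 2, without stimulation on the left and after LPS on the right. Points of 7 markers lie under zero in all 3 runs without stimulation and of 8 after LPS, while Cdh1 and Zbtb46 without stimulation and Cd83 after LPS lie on both sides of zero.

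Within the 3 runs the direction of the genotype difference was the same for 8 markers without stimulation, 7 lower and Batf3 higher, and for 9 after LPS, 8 lower and Batf3 higher. Some libraries held the extreme of several markers. WT unstimulated library 33 was the lowest of its group for 9 of the 10 and WT unstimulated library 26 the highest for 5. AhR-KO unstimulated library 27 was the highest of its group for 5, and AhR-KO LPS library 31 for 5 of the 9 markers with counts, whereas no WT LPS library was the lowest or the highest for more than 4. Library 33 had a length slope of -0.28, while libraries 26, 27 and 31, all of the second run, had slopes of 0.238, 0.208 and 0.237. Other libraries went the opposite way, such as WT LPS library 29 (slope 0.302), the lowest for 4, and WT LPS library 38 (slope -0.155), the highest for 4. With libraries 19 and 33 both left out, a choice made after seeing the data, no called member lost its call in the genotype comparisons and Cdh1 after LPS gained one (-2.49, adjusted p = 0.0267).

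Per kilobase of exon, the order of the markers changed with LPS. In WT unstimulated cultures Cdh1 (35.8 ± 21.2 CPM per kb), Epcam (32.4 ± 12.6), Cd207 (23.3 ± 8.40) and Ccr7 (18.7 ± 9.36) led, with overlapping spreads between neighbours, and Zbtb46 (0.402 ± 0.195) and Flt3 (0.251 ± 0.172) were last. In AhR-KO unstimulated cultures Cdh1 (13.2 ± 8.39) and Batf3 (7.74 ± 1.27) led, and every other marker was under 1 CPM per kb. After LPS the maturation genes led in WT, with Ccr7 at 687 ± 341, Fscn1 at 241 ± 166 and Cd83 at 107 ± 61.4 CPM per kb, followed by Batf3 at 16.3 ± 5.96. In AhR-KO after LPS the order was Ccr7 (161 ± 150.0), Cd83, Batf3 (21.3 ± 6.30) and Fscn1 (12.6 ± 18.9), with overlapping spreads between neighbours.

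Other genes of these cell types were read from lists, also chosen with earlier results known, with the 10 markers left out of the counts. Beside them, 4.48% of all genes were called by genotype without stimulation and 8.36% after LPS. For LPS the share was 24.9% in WT and 30.8% in AhR-KO, and for the interaction 4.3%. Of 6 tested Langerhans cell genes, 3 fell in AhR-KO in both genotype comparisons and none rose, with a median log2 fold change of -1.89 without stimulation and -1.68 after LPS. Mfge8, a bridge between dying cells and phagocytes, averaged 1433 ± 570 CPM in WT and 99.6 ± 44.1 CPM in AhR-KO unstimulated cultures, and 840 ± 248 and 12.4 ± 7.37 CPM after LPS (edgeR adjusted p = 1.70e-06 and 6.89e-09). Cldn1, a tight junction protein found in Langerhans cells, averaged 199 ± 53.1 and 15.5 ± 5.20 CPM without stimulation and 60.95 ± 34.9 and 2.26 ± 1.26 CPM after LPS. Hepacam2 was the third. Runx3, Ly75 and the other tested gene were not called by genotype.

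Among 14 tested genes of mature migratory DCs, LPS raised all 14 in WT and 11 in AhR-KO, and lowered none. By genotype 6 fell and 1 rose in unstimulated AhR-KO cultures (median log2 fold change -1.50), and 5 fell and 1 rose after LPS (median -0.93). The costimulatory genes Cd86 (55.3 ± 21.6 CPM in WT, 7.65 ± 2.84 in AhR-KO) and Cd40 (7.46 ± 2.65 and 1.11 ± 0.454) fell without stimulation, as did Marcksl1. The chemokine gene Ccl17 rose, from 629 ± 225 to 3274 ± 1311 CPM (log2 fold change 2.38, SE 0.35, edgeR adjusted p = 7.15e-05). After LPS Tmem123, Socs2, Il4i1 and Relb were among those lower, Il4i1 at 240 ± 95.9 CPM in WT and 43.7 ± 42.8 CPM in AhR-KO (log2 fold change -2.46, edgeR adjusted p = 0.0107, and -3.17 without AhR-KO library 31). The Relb call was lost, by the 2-fold limit, on leaving out WT library 21, 22 or 38. Il12b, which encodes a subunit of interleukin 12 and was named after its values were seen, was the 1 called higher, at 42.6 ± 7.98 CPM in WT and 142.5 ± 160.8 CPM in AhR-KO (log2 fold change 1.74, SE 0.51, edgeR adjusted p = 0.023). That call rested on AhR-KO library 31, without which the value was 0.86 (adjusted p = 0.191). The LPS response was called different for 6 of the 14, larger in AhR-KO for 4, among them Cd40 (3.72, SE 0.51) and Cd86 (2.30, SE 0.45).

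Genes of the classical DC classes split. Of 11 tested cDC1 genes, Naaa and Clec9a rose in unstimulated AhR-KO cultures and Itgae and Gcsam fell, while after LPS Cd24a, Irf8, Itgae and Gcsam fell and none rose, with medians of -0.29 and -0.50. Irf8, the factor that sets the cDC1 line, averaged 955.5 ± 394 CPM in WT and 69.2 ± 56.3 CPM in AhR-KO after LPS (log2 fold change -3.79, SE 0.38, edgeR adjusted p = 3.06e-07). Its LPS response was smaller in AhR-KO (-2.97, SE 0.49, edgeR adjusted p = 7.81e-04). The Naaa call was lost on leaving out library 17, 19, 25 or 26 (log2 fold change from 0.949 to 0.987). Of 10 tested cDC2 genes, Cd7 and Cd209a fell without stimulation. Irf4 alone rose after LPS, 10% of the list beside 8.36% of all genes called. The Cd209a call was lost without library 17, 34, 35 or 36 (adjusted p from 0.0555 to 0.0666), and the Irf4 call without library 31, 32, 37 or 38 (adjusted p from 0.0532 to 0.0791). Cd7 had no AhR-KO count in unstimulated cultures, and Gcsam had none in either AhR-KO group. None of 19 tested regulators of DC development was called without stimulation, by edgeR at these thresholds, and 3 were after LPS (Irf8 and Relb lower, Irf4 higher), 1 of them still called without library 38. None of 15 tested ligands and partners of the markers was called by genotype in either state, and the CCR7 ligands Ccl19 and Ccl21a had no counts in any group.

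**Figure D4:**
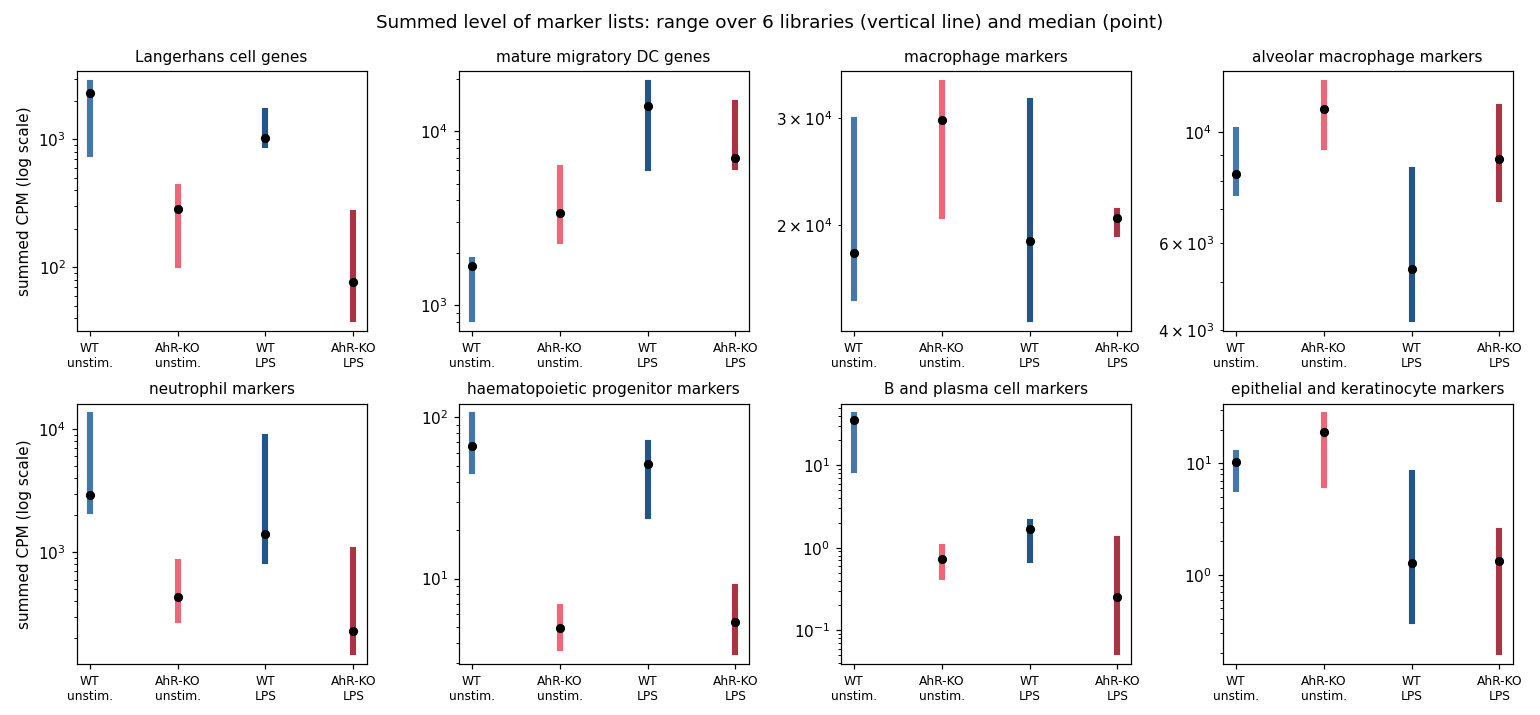
Summed CPM of 8 marker lists, each vertical line spanning the 6 libraries of a group and the point marking their median, on a log axis that differs between panels. The Langerhans cell and mature DC sums include the markers described here. Median sums of the Langerhans cell, neutrophil and progenitor lists were lower in AhR-KO in both states, and macrophage sums, most of them Lyz2, were 13980 CPM or more in every library. The median mature DC sum was higher in AhR-KO without stimulation (3396 against 1685 CPM in WT), where Ccl17 averaged 3274 CPM. After LPS it was lower in AhR-KO (7027 against 13910 CPM). In WT unstimulated cultures Mfge8 gave 1433 CPM of the mean Langerhans cell sum of 2038 CPM.

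Markers of other cell types moved with genotype too, beside 4.48% of all genes called without stimulation and 8.36% after LPS. The plasmacytoid DC, T and NK cell and stromal lists held calls in both directions. Irf7 was lower in AhR-KO without stimulation (log2 fold change -1.46) and higher after LPS (1.18, a call lost without library 32). Tcf7 was lower in both states (-5.79 and -9.998), and Dcn was higher after LPS (3.84). Neutrophil markers summed to between 2162 and 12940 CPM in WT unstimulated libraries and between 280.0 and 826 CPM in AhR-KO libraries, with 9 of 10 tested lower, and after LPS to between 846 and 8568 CPM and between 154 and 1036 CPM, with 7 of 10 lower. Leaving out library 37 left 6 called after LPS, where S100a8 went from -2.62 to -1.70 (edgeR adjusted p = 0.0858). Haematopoietic progenitor markers, a list that also holds Flt3, summed to between 46.5 and 103 CPM in WT and between 3.69 and 6.64 CPM in AhR-KO unstimulated libraries, with 6 of 7 other genes lower, and 7 of 7 after LPS. Leaving out 1 library left 4 to 6 of these called without stimulation and 4 to 7 after LPS, where Meis1, Myb and Prtn3 lost their calls without library 22. The calls of Myb without stimulation and Meis1 after LPS were each lost on leaving out any 1 of more than 12 of the 24 libraries. Mast cell and basophil markers were lower in 6 of 9 in both states, but without stimulation Cpa3, Mcpt8 and Prss34 lost their calls on leaving out library 17 (3 called) or 36. After LPS the sum of this list went the other way, from 334.9 to 518.8 CPM in WT and from 534.6 to 837.5 CPM in AhR-KO. Most of it was Hdc (411 ± 68.8 and 648 ± 110 CPM), and no gene of the list was called higher. The 1 B cell marker tested, Ighm, was lower without stimulation. The part of these cells in the marker results was not tested. None of 12 tested macrophage markers was called without stimulation, and after LPS Fcgr1 was higher (log2 fold change 1.24) and C1qa lower (-2.44), the C1qa call being lost on leaving out library 21, 22, 23, 24, 31, 32, 38 or 40 (adjusted p from 0.0515 to 0.0799). Alveolar macrophage markers were higher in 3 of 12 without stimulation (Siglecf 62.0 ± 23.7 CPM in WT and 184 ± 30.95 CPM in AhR-KO) and in 3 of 12 after LPS, with 1 lower. The Car4 call after LPS (log2 fold change 1.004) was lost, by the 2-fold limit, without library 19, 21, 22, 32, 33, 38, 39 or 40. Epithelial and keratinocyte markers, which bear on Epcam and Cdh1, summed to between 5.86 and 12.4 CPM in WT and between 6.36 and 26.99 CPM in AhR-KO unstimulated libraries. Most of that sum was Krt19, at 9.24 ± 2.81 CPM in WT and 15.98 ± 6.56 CPM in AhR-KO. The keratinocyte genes Krt5, Krt14 and Trp63 had no count in either unstimulated group, though Krt5 and Krt14 had counts in WT after LPS.

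By the root mean square difference of centred log2(CPM + 0.5) over the 24 libraries, a description of likeness only, the genes nearest to Cd207 were Rgs18 (0.672), Lpar3 (0.749) and Hpgds (0.764), against a median of 2.60 over all tested genes. Lpar3 (0.724) was also the gene nearest to Epcam, followed by Cldn1 (0.771) and Acot6 (0.875), and Cd207 and Epcam were the closest pair among the 10 (1.01). Tmem176a (0.457) was nearest to Flt3, Nup210 (0.695) to Cdh1 and Wdr86 (0.428) to Dpp4. Ccr7 was nearest to Il4i1 (0.983) and then to Cd83 (1.03), while Cd83 was nearest to Cd86 (0.696), Sema7a (0.698) and Tnfrsf9 (0.709). Fscn1 was nearest to Adcy6 (1.04) and Il4i1 (1.18), against a median of 3.32. Zbtb46 was nearest to Nck2 (0.412) and Socs2 (0.426), and Batf3 to Btbd16 (0.328), against medians of 1.09 and 1.18. All points share the libraries, their depth and their run.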

How the data were processed

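Polyadenylated RNA of 24 mouse BMDM cultures was sequenced from directional libraries. The authors aligned reads with GSNAP to mm10 and counted fragments per Ensembl gene with featureCounts 2.0.1, by strand, and these deposited counts were the only values used. The submitters' processing notes also name bcl2fastq 2.20.0. Counts with edgeR 4.0.16 (R 4.3.3) were fitted over all libraries with 1 coefficient per group, TMM scaling, filterByExpr and a robust quasi-likelihood test with Benjamini-Hochberg adjustment over 16593 genes. A call needed an adjusted p of at most 0.05 and, except for the interaction, a log2 fold change of at least 1. The biological coefficient of variation was 49.1%. P-values measure the spread between these cultures. Sequences came from RefSeq and positions from GRCm38.

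Groups came from the sample labels, and the lists, like the markers, were chosen with earlier results of these data known. Named genes were the 10 markers, Ahr, at most the 4 called genes of highest mean CPM per list and comparison, and the 3 nearest profiles per marker. Genes that overlap a marker were also named. Named outside this rule were the list genes Csf1r, Lyz2, Cd163, Ly75, Il12b, Mcpt8, Myb, Krt5, Krt14, Trp63, Ccl19 and Ccl21a. The fit was also run on simulated data, and the outcome is not given here. Alternatives were DESeq2 1.42.0 size factors or total library size, fitting all genes with a count or those averaging 1 CPM or more, the DESeq2 test, limma-voom (limma 3.58.1), the 12 libraries compared only, the run or the length slope as covariate, no minimum fold and each library left out. A group without counts was set at a floor of 3 counts, which covers counting error only. Nothing else in the table was used, and the 92 spike-in sequences held 1 count.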

Additional observations from a re-analysis of the deposited data

Results flagged for a closer look

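In 39 groups of 6 libraries with counts, 1 library stood apart from the other 5 by Dixon's test at the 95% level in 3, where chance alone gives about 1 in 20, or 1.95. Epcam was 0.315 CPM in AhR-KO LPS library 31, above the other 5 libraries. Cdh1 was 10.7 CPM in WT unstimulated library 33, under the others, and that library was also the lowest of its group for 9 of the 10 markers. Batf3 was 16.3 CPM in AhR-KO unstimulated library 36, above the others.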

How the results depend on the processing

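Of 1727 values of single markers under another setting or with a library left out, 1649 kept their direction and their side of the threshold, 28 lost a call, 27 gained one and 23 changed sign. Under the other settings the number of markers called was 7 to 9 in both genotype comparisons, 9 for LPS in WT and 6 to 7 for LPS in AhR-KO. The 7 without stimulation came from fitting the 12 libraries alone, where Flt3 did not pass the filter. Leaving out 1 library gave 8 to 8 for the genotype comparison without stimulation, 6 to 9 after LPS, 9 to 9 for LPS in WT, 6 to 7 for LPS in AhR-KO and 0 to 2 for the interaction. The interaction count was 0, but 3 by DESeq2, 1 with a term for run and 4 with a covariate for length slope. The shares of all genes called under these other settings are not given, so the counts are no result about the markers. The cause of the differing counts was not tested.

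Zbtb46 without stimulation was -0.0975 with total library size, -0.174 without libraries 19 and 33, and from -0.182 to 0.183 with 1 library left out. Zbtb46 for LPS in AhR-KO was 0.0035 with DESeq2 size factors, 0.0036 by DESeq2, and from -0.41 to 0.158 with 1 left out. Dpp4 for LPS in AhR-KO was -0.0868 with total library size, and Flt3 there was from -0.0339 to 1.54. The interaction of Cd207 was 0.191 by DESeq2, 3.21 by limma-voom and from -1.01 to 0.239 with 1 left out, and that of Fscn1 -0.42 by limma-voom, -0.293 with the run as a factor and from -1.03 to 0.659. Batf3 for LPS in AhR-KO was 0.988 with total library size, under the 2-fold limit, a scaling that moved the median of all genes by -0.484 there. Cd207 for LPS in AhR-KO, whose LPS libraries held no count so that no fitted value is a bound, was called with total library size (-4.53), by DESeq2 (-3.39) and without WT LPS library 37 (adjusted p = 0.0367), and was -1.29 by limma-voom (adjusted p = 0.517). No paired analysis was possible because no label links cultures of different groups, by animal or by a shared replicate number, and the term for run stands only for neighbouring library numbers.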
